A study of Mus musculus with 31 samples.

Results

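A high-fat diet was compared with chow in the gastrocnemius, the large calf muscle, of wild-type female mice. The comparison uses 8 of the 31 RNA-seq libraries of the series, 4 from mice on chow and 4 from mice on the high-fat diet. All 8 mice carried intact Trim63, the gene of the muscle ubiquitin ligase MuRF1, and all had free access to food and were weaned onto chow. The high-fat group was moved at 8 weeks of age to a diet with 45% fat from lard, and every muscle was taken at 30 weeks. The other groups drawn on are MuRF1 -/- females on chow (4 libraries) and on high fat (3 libraries), and wild-type males on chow and on high fat (4 libraries each). The sources used here give neither the strain nor the composition of the chow.

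A library was placed by the animal number that its record pairs with its counts, and took the group of the title that carries this animal. The chow animals were 2400, 2421, 2479 and 2478, called chow 1 to 4, and the high-fat animals 2446, 2448, 2462 and 2513, called high fat 1 to 4. In 2 of the 8 libraries, chow 4 and high fat 4, the record's own title names another group. Without the libraries whose own title and animal differ, 1928 genes were called in place of 3558.

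Skeletal muscle burns glucose and fatty acids and shifts between them with supply. Fatty acids enter the fibre, are stored in droplets or carried into mitochondria, and are broken down by beta-oxidation to feed the citric acid cycle and the respiratory chain. Nuclear receptors of the PPAR and ERR families drive many of these genes, and PPARs respond to fatty acids themselves. Muscle also holds fibroblast-like progenitors, tendon cells, macrophages, vessels and nerve, whose RNA is measured together with that of the fibres.

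Total counts in the 8 libraries ran from 9981063 to 14713468, so that 3 counts correspond to 0.204 to 0.301 CPM (counts scaled to a common library total). Trim63 lay at 130.1 to 221 CPM on chow and at 119 to 242 CPM on high fat, against 0.47 to 6.24 CPM in MuRF1 -/- libraries. Xist, the RNA of the inactive X, lay at 91.2 CPM or more in all 8, and the Y-linked Ddx3y at 0.1 CPM or less. The counts hold no such check of the diet. Chow 3 stood apart in skin and nerve markers, with the epidermal keratin Krt10 at 23.7 CPM there and at 1.42 to 2.64 CPM in the other 7 libraries. High fat 4 was lowest of the 8 in the summed matrix, tendon, macrophage and nerve markers. Chow 4 was highest in erythroid genes, with the globin Hbb-bs at 673 CPM and at 72.2 to 216 CPM elsewhere. Chow 1 was the highest chow library in 7 of the 8 fat-use genes plotted by library.

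Many genes differed between the diets. Of 14024 genes tested with edgeR, 3558 (25.4%) had an adjusted p under 0.05, and these are the genes called here. They comprised 1804 that rose (12.9% of all tested) and 1754 that fell (12.5%), and 395 of them changed at least 2-fold. In CPM, which lack the scaling factors used in the test, all 4 high-fat values lay above all 4 chow values in 7.52% of genes. In 15.7% all lay below. Overlap is judged on these CPM throughout, where groups apart were more frequent downward than upward over all genes. Without high fat 3 the count of called genes was 1829, and without chow 3 it was 2355.

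Genes that rose were GC-rich and short, and genes that fell were AT-rich and long. The median GC content of the exons was 55.9% in the genes that rose, 44.2% in those that fell and 49.8% in all genes tested. The corresponding median exonic lengths were 2511, 5260 and 3297 bases. GC content and length are those of the longest annotated transcript of each gene. When the tested genes were divided into 5 equal groups by GC content, the median log2 fold change climbed from -0.30 in the poorest group to 0.33 in the richest. The same medians were -0.25 and 0.24 in MuRF1 -/- females, and -0.02 and 0.03 in wild-type males. A GC index was taken for each library as the mean log2 deviation of the richest group minus that of the poorest. It lay between -0.29 and -0.05 on chow and at 0.18, 0.40, 1.075 and 0.13 in high fat 1 to 4, so the diet groups did not overlap, and high fat 3 was the highest of all 30 grouped libraries. Mitochondrially encoded genes held 10.2% to 12.9% of the counts on chow and 11.9%, 9.09%, 5.4% and 7.78% in high fat 1 to 4. The diet and the GC index moved together and cannot be told apart in the uncorrected values. With a GC correction per library, 702 genes rose (5.05%) and 797 fell (5.73%), and 1132 of these 1499 were among the 3558. With exonic length corrected as well, 675 rose (4.85%) and 613 fell (4.41%), and 868 were shared. For the groups of genes in wild-type females below, counts with the GC correction are given beside the uncorrected ones. Counts of such groups in MuRF1 -/- females, in males and for the sex difference are uncorrected. Over all genes the shares that rose and fell were 12.9% and 12.5% uncorrected, and 5.05% and 5.73% corrected.

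**Figure D1:**
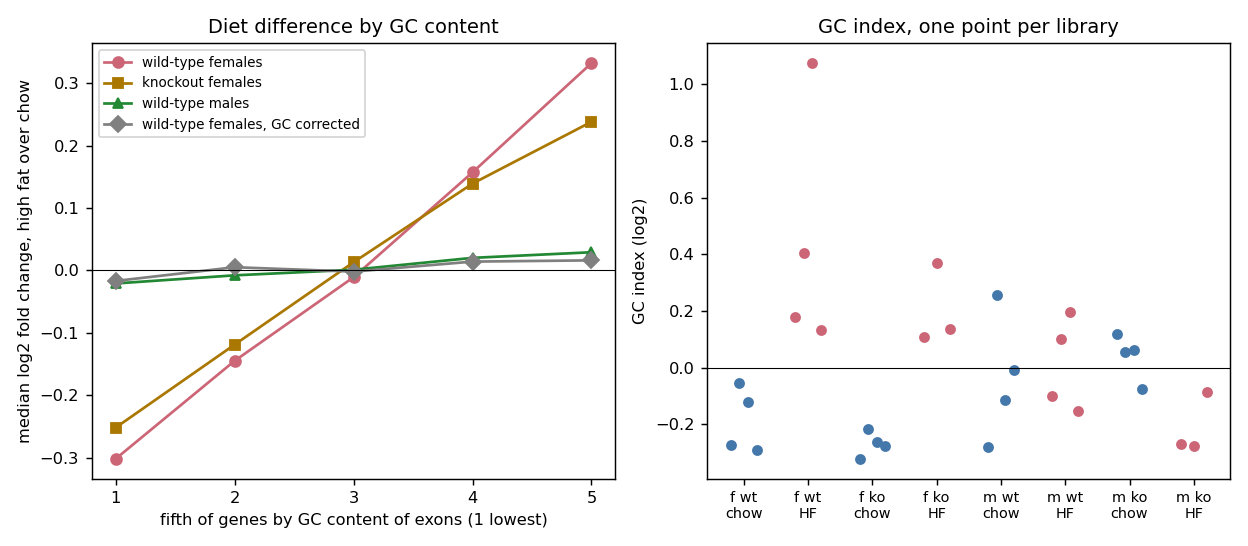
Left, median log2 fold change of high fat over chow (y axis) for tested genes in 5 equal groups by exonic GC content (x axis), for 3 diet comparisons and for wild-type females after GC correction. Right, the GC index (log2) of each of the 30 grouped libraries, with f and m for female and male, wt and ko for wild type and MuRF1 -/-, and HF for high fat; all 4 wild-type female libraries on high fat lie above the 4 on chow, with 1 at 1.075.

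Part of the genes of fat use rose on the high-fat diet. Of 24 tested PPAR targets and fasting-type fuel genes 9 rose and 0 fell, with a median log2 fold change of 0.27 against -0.01 over all genes, and 5 rose with the GC correction. Fabp3, the fatty acid carrier of the muscle cytosol, was at 453, 201, 199 and 151 CPM on chow and at 693, 715, 538 and 648 CPM on high fat. The groups did not overlap, with chow 1 closest to the high-fat range, and the fitted difference was 1.45 ± 0.35 (log2 ± SE, as for all such values here, adjusted p = 0.00558). Pdk4, the kinase that shuts pyruvate out of the citric acid cycle, was at 543, 218, 152 and 206 CPM on chow and at 743, 1037, 551 and 480.4 CPM on high fat. Chow 1 lay above high fat 4, while the other 3 chow libraries lay below every high-fat one (1.39 ± 0.38, adjusted p = 0.0116). Angptl4, a secreted inhibitor of lipoprotein lipase, was at 3.21, 4.14, 3.85 and 2.50 CPM on chow and at 6.61, 15.0, 9.16 and 4.31 CPM on high fat. High fat 4 lay just above chow 2, and the groups did not overlap (1.42 ± 0.37, adjusted p = 0.00806). Acot2, a mitochondrial acyl-CoA thioesterase, was at 9.47, 6.75, 7.03 and 5.41 CPM on chow and at 13.9, 14.3, 14.9 and 12.0 CPM on high fat, again without overlap (1.01 ± 0.22, adjusted p = 0.00236). These 4 genes remained called in each run that left out 1 of the 8 libraries, with the GC correction, and with GC and length corrected. Fabp3, Angptl4 and Acot2 remained called in every alternative run, and Pdk4 did not. In the mouse genome (mm10) Fabp3 (ENSMUSG00000028773) lies on chromosome 4 from 130308595 to 130315463. Pdk4 (ENSMUSG00000019577) lies on chromosome 6 from 5483351 to 5496309, and Angptl4 (ENSMUSG00000002289) on chromosome 17 from 33773750 to 33781830.

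The other 5 of the 9 were Plin5, Mlycd, Slc25a20, Cpt1b and Ucp2. Plin5, which coats droplets that touch mitochondria, was at 27.7, 9.36, 7.32 and 10.1 CPM on chow and at 26.7, 40.7, 35.2 and 25.6 CPM on high fat. Chow 1 lay inside the high-fat range and the other 3 below it (1.30 ± 0.37, adjusted p = 0.0134, 0.0886 with the GC correction and 0.0524 without chow 3). Mlycd, which removes the malonyl-CoA that blocks fatty acid entry into mitochondria, rose by 0.72 ± 0.19, and its adjusted p was 0.202 with the GC correction. Slc25a20, the carnitine-acylcarnitine carrier, rose by 0.58 ± 0.15 and remained called with it. Cpt1b, the muscle form of the enzyme that admits long-chain fatty acids, rose by 0.80 ± 0.27 at a low level, 1.70 to 2.38 CPM on chow and 2.40 to 5.29 CPM on high fat, and its adjusted p was 0.0744, 0.0646 and 0.16 without chow 3, chow 4 or high fat 3. The uncoupling protein gene Ucp2 rose by 0.51 ± 0.17, with overlap. It was not called with the GC correction (adjusted p = 0.238), and its call held in 4 of the 8 runs without 1 library.

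**Figure D2:**
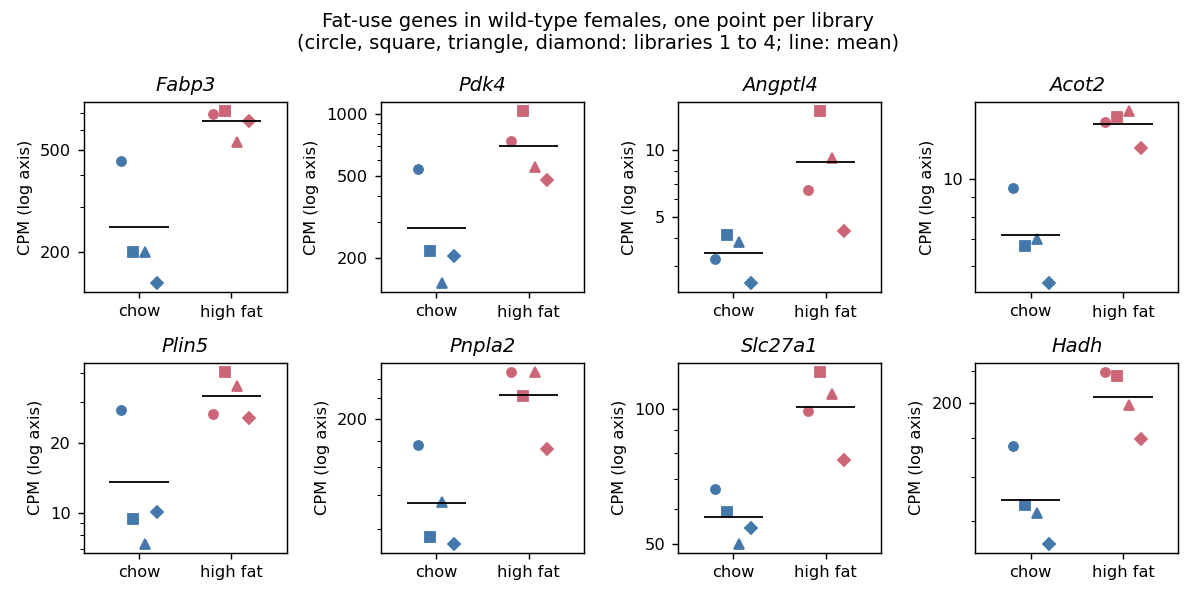
CPM (log axis) of 8 genes of fat uptake, storage and oxidation in wild-type females on chow and on high fat, 1 point per library, with a shape for each library number and a line at the mean. Chow 1 (circle) is the highest chow library for 7 of the 8 genes, and all high-fat libraries lie above the other 3 chow libraries in every panel.

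Lipid uptake and droplet genes moved in part. Of 25 tested 6 rose and 0 fell (median 0.20), and 5 rose with the GC correction. Besides Fabp3 and Plin5 these were the triglyceride lipase Pnpla2, the fatty acid transport proteins Slc27a1 and Slc27a4, and Gpihbp1, which carries lipoprotein lipase on capillaries. Pnpla2 was at 177, 115, 136 and 112 CPM on chow and at 249, 222, 248 and 174 CPM on high fat. Chow 1 alone of the chow libraries reached into the high-fat range (0.80 ± 0.13, adjusted p = 0.000264). Slc27a1 was at 50.1 to 66.3 CPM on chow and at 77.1 to 121 CPM on high fat, without overlap (0.89 ± 0.20). Slc27a4 and Gpihbp1 rose by 0.62 ± 0.14 and 0.76 ± 0.19. Cd36, the main fatty acid translocase, did not pass the test (-0.12 ± 0.22, adjusted p = 0.719), nor did lipoprotein lipase, Lpl (0.02 ± 0.19, adjusted p = 0.944).

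Enzymes of mitochondrial beta-oxidation rose in part. Of 22 tested 11 rose and 0 fell, the median was 0.39, and 9 rose with the GC correction. Hadh, which oxidises hydroxyacyl-CoA, was at 176, 147, 143 and 131 CPM on chow and at 219.9, 217, 199 and 179 CPM on high fat. Acads, the short-chain acyl-CoA dehydrogenase, was at 102, 92.4, 78.6 and 71.4 CPM on chow and at 126, 130.2, 149 and 104 CPM on high fat. Neither gene overlapped between the groups, although high fat 4 came close to chow 1 in both (0.52 ± 0.11, adjusted p = 0.00229, and 0.63 ± 0.13, adjusted p = 0.00177). Etfb, a carrier of the electrons released by these dehydrogenases, rose by 0.70 ± 0.18 and the isomerase Eci1 by 0.50 ± 0.13. Of these 4, Hadh alone was called with the GC correction. The long-chain and medium-chain dehydrogenases Acadvl (0.41 ± 0.18, adjusted p = 0.0855) and Acadm (0.19 ± 0.14, adjusted p = 0.337) did not pass. Without chow 3 and high fat 4 together, the libraries at the ends of the matrix and nerve markers, 10 of the 22 rose. That fit called 9.08% of all genes as higher and 7.73% as lower.

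Genes of the respiratory chain rose in the majority, by small amounts. Of 71 nuclear genes of oxidative phosphorylation 46 rose and 0 fell, with a median of 0.41, and 36 rose with the GC correction. The complex I subunit Ndufs7 was at 185, 184, 153 and 166 CPM on chow and at 260.3, 266, 301 and 264 CPM on high fat, without overlap (0.74 ± 0.14, adjusted p = 0.000655). The ATP synthase genes Atp5g1 and Atp5d rose by 0.76 ± 0.14 and 0.79 ± 0.14, and the complex I subunit Ndufa11 by 0.71 ± 0.14. The count of 46 came to 22 without chow 3 and high fat 4, and to 28 without chow 3 alone. Of 45 mitochondrial ribosomal protein genes 15 rose and 0 fell, 14 rose with the GC correction, and 8 without chow 3. Of 27 genes of the citric acid cycle and pyruvate entry 8 rose and 1 fell, and with the GC correction 11 rose and 1 fell. The 1 that fell without the correction was the phosphatase gene Pdp1, which was not called with it (adjusted p = 0.762). The call of Pdp1 held in 4 of the 8 runs without 1 library. Mdh2, the mitochondrial malate dehydrogenase, rose by 0.57 ± 0.11 and citrate synthase, Cs, by 0.30 ± 0.08. Pdk2, a further kinase of pyruvate dehydrogenase, rose by 0.60 ± 0.10, from 384 to 423 CPM on chow to 539 to 698 CPM on high fat.

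The mitochondrial genome contributed 13 tested genes. With edgeR 0 rose and 0 fell, 1 being higher and 2 lower at an unadjusted p under 0.05, and DESeq2 called 1 as lower. Their median was -0.17, and 0.15 with the GC correction and 0.03 with GC and length corrected. The complex I subunit mt-Nd5 was at 11039, 10636, 10327 and 9721 CPM on chow and at 8289, 5777, 3288 and 2838 CPM on high fat. The groups did not overlap, but the test was not passed (-0.98 ± 0.37, adjusted p = 0.054). The cytochrome oxidase subunit mt-Co1 was at 48060, 39093, 36895 and 40984 CPM on chow and at 45090, 35935, 20656 and 28455 CPM on high fat. High fat 1 lay inside the chow range and the test was not passed (-0.27 ± 0.20, adjusted p = 0.342). With the GC correction 1 of the 13, mt-Co2, was called, at 0.90.

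Regulators of these pathways were called at a share near that of all genes. Of 26 tested 4 rose and 4 fell, against 12.9% and 12.5% of all genes, 2 rose and 1 fell without high fat 3, 2 fell without chow 1, 3 or 4, and with the GC correction 2 rose and 1 fell. Esrra, the receptor ERR alpha that drives mitochondrial genes, was at 73.6, 79.2, 58.9 and 64.0 CPM on chow and at 98.9, 108, 133 and 80.2 CPM on high fat. The groups did not overlap, with chow 2 and high fat 4 nearly equal (0.67 ± 0.13, adjusted p = 0.000828). The mitochondrial deacetylase Sirt3 rose by 0.60 ± 0.12, and Ppard, a PPAR abundant in muscle, by 0.34 ± 0.10. Perm1, a muscle partner of ERR alpha, rose by 0.31 ± 0.11, and the deacetylase Sirt1 fell by 0.39 ± 0.13. Of these Ppard, Perm1 and Sirt1 were not called with the GC correction (adjusted p = 0.0622, 0.313 and 0.29). Ppara was at 9.82 to 12.1 CPM on chow and at 1.92 to 7.95 CPM on high fat (-1.0 ± 0.35, adjusted p = 0.0365, and 0.0513 with the GC correction). Its call held in 2 of the 8 runs without 1 library, those without high fat 1 and without high fat 2. Pparg, the PPAR of fat cells, fell by 0.84 ± 0.24 and remained called with the GC correction. The kinase subunit Prkaa2 fell by 0.53 ± 0.14 and did not. The coactivator Ppargc1a did not pass (-0.30 ± 0.24, adjusted p = 0.368).

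Genes of fatty acid and sterol synthesis fell in part. Of 27 tested 8 fell and 2 rose, the median was -0.42, and 9 fell and 0 rose with the GC correction. Acaca, the acetyl-CoA carboxylase that commits carbon to fatty acids, was at 29.9, 52.5, 46.3 and 50.7 CPM on chow and at 21.0, 28.3, 17.1 and 15.9 CPM on high fat. The groups did not overlap, with chow 1 nearest to high fat 2 (-1.05 ± 0.29, adjusted p = 0.0128, and 0.0515 without high fat 3). ATP citrate lyase, Acly, fell by 1.13 ± 0.38, the elongase Elovl6 by 1.68 ± 0.48, the desaturase Fads1 by 0.80 ± 0.20 and Idi1 of the sterol pathway by 1.1 ± 0.23. The 2 that rose were Mlxipl, the glucose-sensing factor ChREBP (0.51 ± 0.10), and Acacb (0.31 ± 0.10), the carboxylase that makes malonyl-CoA at the mitochondrion. Neither was called with the GC correction. Without chow 3 and high fat 4, 1 of the decreases, Idi1, was still called. Of single libraries, high fat 3 lowered the count of decreases most, to 3 without it, and it was 4 without chow 3 and 4 without high fat 4.

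**Figure D3:**
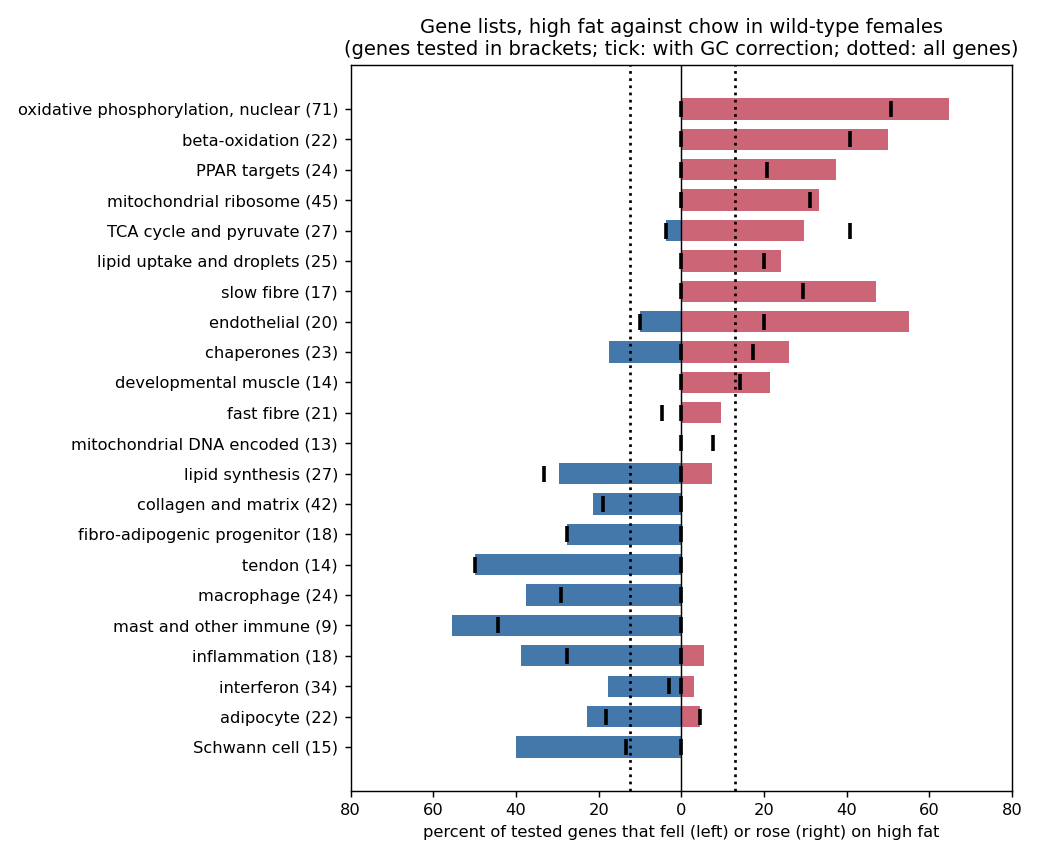
Percent of the tested genes of each list that fell (left, blue) or rose (right, red) on high fat in wild-type females, with the number tested in brackets. Black ticks give the percent with the GC correction over the same number. Dotted lines give the uncorrected percent of all genes that fell (12.5) and rose (12.9), for the bars. For the ticks the percents of all genes are 5.73 and 5.05, not drawn.

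Slow-fibre genes rose in part, and the slow myosin itself did not pass. Of 17 tested 8 rose and 0 fell, the median was 0.76, and 5 rose with the GC correction. Sln, which encodes sarcolipin, an inhibitor of the calcium pump, was at 5.35, 4.76, 6.66 and 3.31 CPM on chow and at 23.2, 13.2, 14.9 and 12.4 CPM on high fat. The groups were well apart (1.73 ± 0.43, adjusted p = 0.00608). The myosin light chain Myl6b rose by 1.1 ± 0.17, and the oxygen store myoglobin, Mb, by 0.83 ± 0.21, from 1558 to 2881 CPM to 3345 to 3619 CPM. Tnni1, the slow troponin I, rose by 1.02 ± 0.36 (adjusted p = 0.0408, and 0.0549 with the GC correction), and its call held in 2 of the 8 runs without 1 library. Actn2, Ankrd2, Myh7b and Csrp3, genes of the Z-disc and sarcomere, rose by 0.76 to 0.95. Myh7, the slow myosin heavy chain, was at 356 to 746 CPM on chow and 407 to 1074 CPM on high fat, with overlap (0.62 ± 0.38, adjusted p = 0.234). The summed level of the list was 7808 CPM in chow 1, 4536 to 5575 CPM in the other chow libraries and 7421 to 9575 CPM on high fat. Without chow 3 or without chow 4, 5 of the genes rose, and without chow 1 10. Of 21 fast-fibre genes 2 rose, against 12.9% of all genes. They were the kinase gene Mylk2 (0.50 ± 0.13) and the calcium pump Atp2a1 (0.32 ± 0.11). With the GC correction 0 rose and 1 fell, against 5.05% and 5.73%. Without chow 3 or without high fat 3, 1 rose.

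Of 14 developmental and cardiac-type muscle genes 3 rose and 0 fell, against 12.9% and 12.5% of all genes. With the GC correction 2 rose, against 5.05%. Without chow 4 or without high fat 3, 1 rose. Myh3, the embryonic myosin heavy chain, was at 4.66, 6.21, 11.3 and 5.81 CPM on chow and at 19.5, 30.7, 20.0 and 12.5 CPM on high fat. High fat 4 and chow 3 lay close together, and the other libraries were further apart (1.63 ± 0.40, adjusted p = 0.00634). Nrap and the light chain Myl4 rose by 0.31 ± 0.10 and 0.71 ± 0.23, and neither was called with the GC correction.

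Chaperones moved in both directions. Of 23 tested 6 rose and 4 fell, against 12.9% and 12.5% of all genes. With the GC correction 4 rose and 0 fell, against 5.05% and 5.73%. Hspb6, a small heat shock protein of muscle, was at 801, 659.8, 631 and 634 CPM on chow and at 1242, 1115, 1245 and 1286 CPM on high fat (0.92 ± 0.11, adjusted p = 2.94e-05). The co-chaperone Bag3, which works with small heat shock proteins in the turnover of filamin, was at 132, 102, 108 and 89.9 CPM on chow and at 169, 197, 203 and 173 CPM on high fat (0.86 ± 0.11, adjusted p = 2.94e-05). In both genes the high-fat libraries all lay above the chow ones, and both remained called in every alternative run. The other 4 that rose were the small heat shock genes Hspb7, Hspb1, Hspb2 and Cryab. Hspb7 and Hspb1 rose by 0.85 ± 0.16 and 0.76 ± 0.16. Hspb1 and Hspb2 were not called with the GC correction (adjusted p = 0.157 and 0.158). The 4 that fell were Hspa4l (-0.58 ± 0.18), Chordc1 (-0.43 ± 0.14), Hsp90aa1 (-0.42 ± 0.15) and Dnaja1 (-0.36 ± 0.13). Chordc1 and Dnaja1 were at 0.07 and 0.05 with GC and length corrected, and 0 of the 4 were called without high fat 3 or without chow 4.

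In glucose use and protein turnover, the counts are read against the 12.9% of all genes that rose and the 12.5% that fell. Counts with the GC correction are read against 5.05% and 5.73%. Of 32 glycolysis and glycogen genes 7 rose and 1 fell (median 0.09), and 2 rose with the GC correction. Gpi1, which interconverts glucose and fructose phosphates, was at 601 to 718 CPM on chow and 837 to 995 CPM on high fat, without overlap (0.52 ± 0.11), and remained called with the GC correction. Glycogen synthase, Gys1, rose by 0.46 ± 0.08, the aldolase Aldoa by 0.64 ± 0.14 and pyruvate kinase, Pkm, by 0.43 ± 0.11, none of which was called with it. Of 34 proteasome genes 5 rose, among them Psmd3 (0.51 ± 0.11) and Psmb5 (0.56 ± 0.12), 1 fell, and 3 rose with the GC correction and 3 without high fat 3. Of 31 autophagy and lysosome genes 5 rose and 4 fell, and 1 rose and 2 fell with the GC correction. Of 50 cytosolic ribosomal protein genes 6 rose, and edgeR called 0 with the GC correction (9 higher at an unadjusted p under 0.05). With GC and length corrected 0 rose and 3 fell. Without high fat 3 edgeR called 0 as higher (8 at an unadjusted p under 0.05), without chow 2, chow 3 or high fat 4 1, without chow 1 2 and without high fat 1 10.

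Antioxidant genes rose in part. Genes of the ATF4 stress response had a median log2 fold change of 0.06, and of 0.01 with the GC correction. Over all genes 12.9% rose and 12.5% fell, and 5.05% and 5.73% with the GC correction. Of 29 antioxidant genes 6 rose and 2 fell, and 7 rose and 0 fell with the GC correction. Those that rose included the mitochondrial thioredoxin Txn2 (0.56 ± 0.12) and the peroxiredoxin Prdx5, at 76.1 to 95.2 CPM on chow and 123 to 156 CPM on high fat without overlap (0.70 ± 0.15). Of 28 genes of the ATF4 stress response 5 rose and 1 fell, and 2 rose with the GC correction. Without chow 3, chow 4 or high fat 3, 3 rose. Of these the factor gene Ddit3 was at 15.0, 15.1, 11.8 and 8.62 CPM on chow and at 20.6, 19.4, 20.8 and 21.8 CPM on high fat, without overlap (0.77 ± 0.17, adjusted p = 0.00264), and Atf5 rose by 0.87 ± 0.16. Both remained called with the GC correction.

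Genes of the neuromuscular junction and of the clock moved in both directions. Their counts stand against 12.9% of all genes that rose and 12.5% that fell, or 5.05% and 5.73% with the GC correction. Of 25 junction and denervation genes 5 rose and 1 fell, 2 rose and 1 fell without high fat 3, 3 rose without chow 1 or without chow 4, and with the GC correction 0 rose and 2 fell. Dok7, an adaptor that clusters acetylcholine receptors, rose by 0.70 ± 0.17 and was not called with it. Utrn, the junction relative of dystrophin, was at 48.0, 45.3, 81.7 and 61.0 CPM on chow and at 33.4, 33.9, 22.5 and 16.2 CPM on high fat, without overlap, and remained called (-1.07 ± 0.23, adjusted p = 0.00244). Of 25 satellite cell and myogenic genes 7 rose and 2 fell, 4 rose with the GC correction, and 2 rose without high fat 3. Of 19 core clock genes 2 rose and 4 fell, against 1 and 0 with the GC correction and 1 and 1 without high fat 3. Without chow 4, 1 rose and 2 fell. Those that fell included Clock (-0.64 ± 0.17) and Rora (-0.64 ± 0.17), and neither was called with the GC correction. The time of day at which muscles were taken is not given in the sources used here.

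Vessel genes moved in both directions. Of 20 endothelial genes 11 rose and 2 fell, with a median of 0.45, against 12.9% and 12.5% of all genes. With the GC correction 4 rose and 2 fell, and without high fat 3 6 rose and 2 fell. Egfl7, secreted by endothelium, was at 17.9 to 34.3 CPM on chow and 40.2 to 57.1 CPM on high fat (0.86 ± 0.17), and Rgcc rose by 0.76 ± 0.16. The 2 that fell were Mmrn1 and Lyve1, markers of lymphatic endothelium, the latter also of resident macrophages. Mmrn1 was at 8.33, 5.37, 8.95 and 4.81 CPM on chow and at 2.20, 2.11, 1.89 and 0.479 CPM on high fat, well apart (-1.93 ± 0.32, adjusted p = 0.000324). Pecam1 and Cdh5, junction proteins of endothelium in general, did not pass, at 0.00 ± 0.16 and 0.15 ± 0.17. Among 14 mural cell genes 2 rose, Des (0.72 ± 0.12), which muscle fibres also express, and Smtn (0.51 ± 0.09), and the channel subunit Abcc9 fell by 0.43 ± 0.15. With the GC correction 1 rose and 0 fell, and Smtn and Abcc9 had adjusted p of 0.263 and 0.182. The call of Abcc9 held in 3 of the 8 runs without 1 library.

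Part of the connective tissue markers fell on high fat. In whole muscle, fewer cells of a type and less RNA per cell cannot be told apart. Of 14 tendon genes 7 fell and 0 rose (median -0.97), and 7 fell with the GC correction. Kera, the proteoglycan keratocan, was at 15.0, 13.8, 22.6 and 10.1 CPM on chow and at 2.77, 4.15, 3.78 and 0.767 CPM on high fat. Every high-fat library lay far below every chow library (-2.33 ± 0.43, adjusted p = 0.000991). Tnmd (tenomodulin) fell by 1.41 ± 0.33, Fmod (fibromodulin) by 1.22 ± 0.32 and the transcription factor Mkx by 1.89 ± 0.47. Prg4, Chad and Col11a1 were lower by 1.09 to 1.18, with adjusted p from 0.0273 to 0.0498. Their calls held in 4, 3 and 2 of the 8 runs without 1 library, and Prg4 and Col11a1 were not called with the GC correction (adjusted p = 0.0652 and 0.0983). Without chow 1, chow 3 or high fat 4, 4 tendon genes fell.

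Of 42 collagen and matrix genes 9 fell and 0 rose (median -0.31), and 8 fell with the GC correction and 4 without chow 3. Col14a1, a collagen that coats fibrils, was at 21.5, 21.2, 35.7 and 19.8 CPM on chow and at 11.8, 13.9, 13.9 and 5.84 CPM on high fat, without overlap (-1.04 ± 0.25, adjusted p = 0.00525). The proteoglycan decorin, Dcn, fell by 0.99 ± 0.26, and the protease inhibitors Timp2 and Timp3 by 0.48 ± 0.13 and 0.79 ± 0.21. The main fibrillar collagens did not pass. Col1a1 was at 153 to 374 CPM on chow and 49.2 to 304 CPM on high fat (-0.18 ± 0.42, adjusted p = 0.785), and Col3a1 was at -0.56 ± 0.37 (adjusted p = 0.276). Of 18 markers of fibro-adipogenic progenitors, the fibroblast-like cells of muscle, 5 fell and 0 rose, and 5 fell with the GC correction. They were Dpp4 (-1.38 ± 0.27), Ebf2 (-1.08 ± 0.26), Dcn, Pdgfra (-0.90 ± 0.25) and Dpt (-0.49 ± 0.16). Without chow 3 and high fat 4, 3 tendon genes and 2 progenitor markers fell, and 3 collagen and matrix genes rose with 0 falling (5 lower at an unadjusted p under 0.05, edgeR). The summed matrix level was 5463 CPM in chow 3 and 1465 CPM in high fat 4, and 2804 to 3472 CPM in the other 6 libraries.

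Part of the immune markers fell as well. Of 24 macrophage genes 9 fell and 0 rose, the median was -0.58, and 7 fell with the GC correction. Without chow 3 or without high fat 4, 5 fell. Cd163, a scavenger receptor of resident macrophages, was at 22.0, 20.1, 25.4 and 20.2 CPM on chow and at 11.1, 12.5, 9.35 and 7.57 CPM on high fat. Each high-fat library lay below each chow library (-1.03 ± 0.18, adjusted p = 0.000365). The mannose receptor Mrc1 fell by 1.25 ± 0.26, Lyve1 by 1.12 ± 0.24 and the integrin Itgam by 1.19 ± 0.27. Of 9 tested markers of other immune cells 5 fell and 0 rose, and 4 fell with the GC correction. They were the general leukocyte marker Ptprc (-1.11 ± 0.25) and the mast cell genes Cpa3, Mcpt4, Cma1 and Kit. Cpa3 was at 6.52 to 14.9 CPM on chow and at 3.64 to 4.76 CPM on high fat (-1.29 ± 0.25), and Mcpt4, Cma1 and Kit were at -0.94 ± 0.26, -0.80 ± 0.23 and -0.72 ± 0.24. Without chow 3, 2 of the 9 fell. The T cell markers of that list were too low to test.

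Of 18 inflammation genes 7 fell and 1 rose, and 5 fell with the GC correction. Complement C3 was at 147, 133, 217 and 142 CPM on chow and at 66.1, 65.9, 74.2 and 27.5 CPM on high fat, far apart (-1.38 ± 0.25, adjusted p = 0.0009). The receptors Tlr2 and Tlr4 fell by 1.23 ± 0.24 and 0.92 ± 0.28, the chemokine Cxcl10 by 1.88 ± 0.52, osteopontin, Spp1, by 1.6 ± 0.50 and the adipsin gene Cfd by 1.37 ± 0.45. The 1 that rose was the NF-kB subunit Rela (0.47 ± 0.11), not called with the GC correction. The cytokine genes Tnf, Il1b and Il6 were too low to test. Of 34 interferon-responsive genes 6 fell and 1 rose, with a median of -0.08, and 1 fell with the GC correction. Over all genes 12.5% fell, and 5.73% with the GC correction. The GTPase gene Gbp2 fell by 0.75 ± 0.20, and the 1 that rose was Ifi35. Of 8 antigen presentation genes of class II, edgeR called 0 as higher and 0 as lower (1 lower at an unadjusted p under 0.05), DESeq2 called 1 as lower, and with the GC correction edgeR called 0 (0 lower at an unadjusted p under 0.05). Without chow 3 and high fat 4, 4 macrophage, 1 other immune, 4 inflammation and 4 interferon genes fell. Without high fat 3 or without chow 3 alone, 4 inflammation genes fell.

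Fat cell markers did not rise together. Of 22 tested 5 fell and 1 rose, with a median of -0.44, and 4 fell and 1 rose with the GC correction. Adipoq, the adiponectin gene of mature fat cells, was at 20.1 to 57.6 CPM on chow and 7.57 to 27.2 CPM on high fat (-0.89 ± 0.40, adjusted p = 0.0987), and leptin, Lep, was at 0.14 ± 0.52. Those that fell were Cfd, Pparg, Acvr1c, Adrb3 and resistin, Retn, and edgeR called 0 of them without chow 3 (4 list members lower at an unadjusted p under 0.05) and 0 without high fat 3 (6). The 1 that rose was the lipid droplet gene Cidea, at 0.688, 0.153, 0.296 and 0.301 CPM on chow and at 2.56, 2.17, 1.79 and 1.34 CPM on high fat (2.50 ± 0.46, adjusted p = 0.000648). Its groups did not overlap, at levels of few counts. Nerve markers moved with 1 library. Of 15 Schwann cell genes 6 fell, among them Mbp and S100b, and 2 fell with the GC correction. The myelin gene Mbp was at 32.1, 23.1, 120.0 and 36.3 CPM on chow and at 23.2, 25.1, 32 and 9.87 CPM on high fat. Chow 3 stood far above the other 7 libraries, and without it edgeR called 0 of the 15 (1 lower at an unadjusted p under 0.05). Of 7 erythroid genes 1, Alas2 of haem synthesis, fell by 1.65 ± 0.44, and it was also called with the GC correction. EdgeR called 0 of the 7 without chow 4 (1 lower at an unadjusted p under 0.05). The part of nerve, skin or fat tissue in the dissected muscle in these results was not tested.

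**Figure D4:**
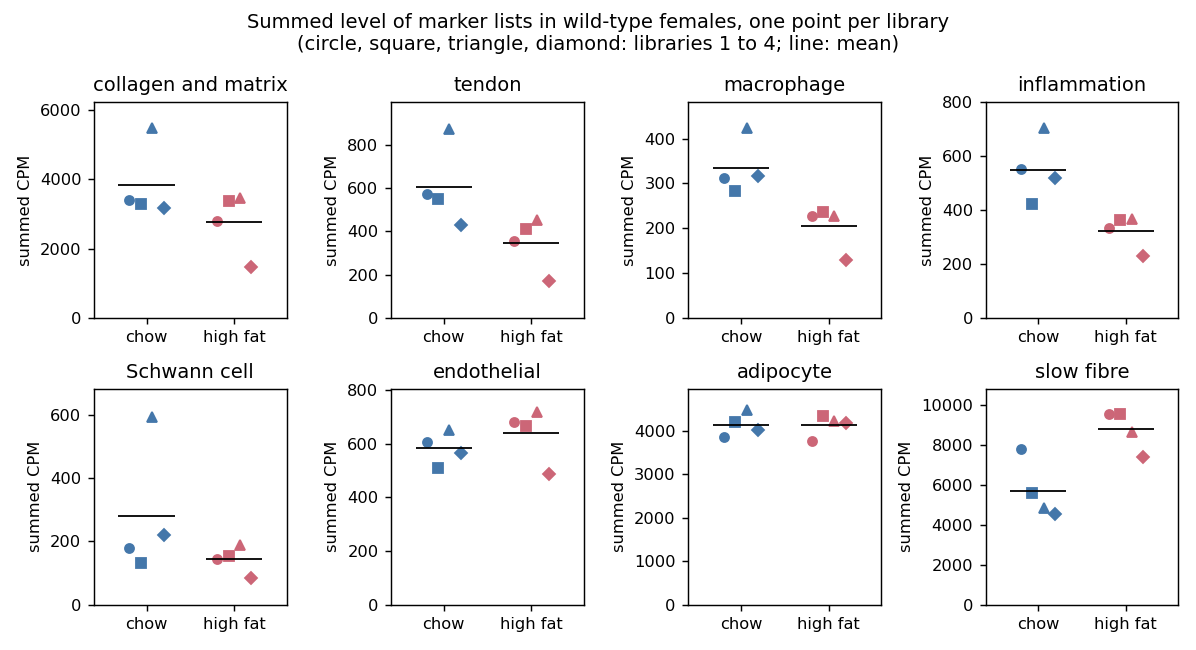
Summed CPM of 8 marker lists in the 8 libraries, 1 point per library with a shape for each library number and a line at the mean. Chow 3 (triangle) is highest for matrix, tendon and Schwann cell markers and high fat 4 (diamond) is lowest; the macrophage and inflammation sums do not overlap between diets, while the adipocyte sums do.

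Signalling genes outside these groups changed singly. Their list counts stand against 12.9% of all genes that rose and 12.5% that fell, or 5.05% and 5.73% with the GC correction. Of 36 insulin and glucose uptake genes 8 fell and 3 rose, and 4 fell and 0 rose with the GC correction. Without high fat 3 or without chow 4, 3 fell, and without chow 1 4 fell and edgeR called 0 as higher (5 at an unadjusted p under 0.05). Igf1, the insulin-like growth factor, was at 24.7, 17.2, 28.4 and 23.8 CPM on chow and at 11.2, 15.0, 10.6 and 8.34 CPM on high fat, without overlap (-0.98 ± 0.22, adjusted p = 0.00281, and 0.0622 with the GC correction). Pik3ca, the catalytic subunit of the insulin-responsive lipid kinase, fell by 0.44 ± 0.13 and was at 0.10 with GC and length corrected. The glucose transporter Slc2a4 did not pass (0.21 ± 0.09, adjusted p = 0.0813). Mstn, which encodes myostatin, a brake on muscle growth, fell by 0.64 ± 0.15 from 52.8 to 72.0 CPM to 29.1 to 45.6 CPM, and its adjusted p was 0.164 with the GC correction. The oestrogen receptor Esr1 fell by 0.49 ± 0.13 and was not called with the GC correction. Of 28 atrophy and FoxO genes 5 rose and 6 fell, and with the GC correction 1 rose and 2 fell. Without high fat 3, 3 rose and 3 fell. Xist fell by 0.71 ± 0.25 (adjusted p = 0.0364) without overlap, from 205 to 268 CPM to 91.2 to 162 CPM. It is a long RNA, and its difference was 0.01 (adjusted p = 0.977) with GC and length corrected. Without any 1 of chow 2, 3 and 4 and high fat 1, 2 and 3, Xist was not called, with an adjusted p of up to 0.134.

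The genes of largest change named here were drawn from calls whose average log2 CPM over the 8 libraries was 0 or more, a limit that leaves out Cidea. Chrna2, an acetylcholine receptor subunit, was at 2.14, 0, 0.370 and 0.200 CPM on chow and at 3.13, 2.24, 1.89 and 1.82 CPM on high fat, with chow 1 inside the high-fat range (1.78 ± 0.58, adjusted p = 0.0268, and up to 0.0837 without any 1 of chow 2, 3 and 4 and high fat 1). After Sln and Myh3 came Rbp7 (1.59 ± 0.57), Fabp3-ps1 (1.53 ± 0.34), Ier5l (1.51 ± 0.35), Odf3l2 (1.46 ± 0.33), Fabp3, Angptl4, Pdk4, Lgals4 (1.35 ± 0.30) and Chrdl2 (1.32 ± 0.36). The call of Rbp7 held in 2 of the 8 runs without 1 library, with an adjusted p of up to 0.119 (edgeR). Fabp3-ps1 is a pseudogene of Fabp3, so its reads are uncertain. Genes of smallest p besides Hspb6 and Bag3 were Phlda3 (1.05 ± 0.13), Fam234a (0.74 ± 0.10), Tmem52 (0.91 ± 0.13) and Chchd10 (1.03 ± 0.14), a mitochondrial protein. Chchd10 was at 271, 319.7, 236 and 262 CPM on chow and at 479.8, 519, 651 and 472 CPM on high fat, far apart.

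The largest decreases under the same limit included several secreted and matrix genes. Mup10, of the major urinary protein family, was at 2.21 to 6.73 CPM on chow and 0.094 to 0.408 CPM on high fat (-4.38 ± 0.71, adjusted p = 0.000407), and near-identical members of that family make its count uncertain. Wif1, a secreted inhibitor of Wnt ligands, was at 3.06, 3.30, 4.51 and 2.50 CPM on chow and at 0.497, 0.204, 0.472 and 0.575 CPM on high fat. Its groups were far apart (-2.88 ± 0.40, adjusted p = 7.09e-05), although the high-fat values rest on few counts. Cyp2e1, a cytochrome P450, fell by 2.50 ± 0.50 from 9.59 to 51.2 CPM to 1.63 to 7.41 CPM, and the matrix protease Adamts12 by 2.20 ± 0.31. Others were Kera, Gabra3 (-2.01 ± 0.45), Mmrn1, Cpxm2 (-1.91 ± 0.49), Chrdl1 (-1.86 ± 0.36), Gpr34 (-1.84 ± 0.46) and the claudin Cldn1 (-1.84 ± 0.45). Genes of small p among the decreases were also Zfp955b (-1.44 ± 0.19), the ferritin receptor Ncoa4 (-0.78 ± 0.11), the transporter Abca6 (-1.59 ± 0.24) and F5, coagulation factor V (-4.36 ± 0.64).

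In MuRF1 -/- females 97% of the genes called in wild-type females had the same sign. That comparison shares no library with the wild-type one. It called 1455 genes as higher (10.4%) and 1233 as lower (8.79%). Without the libraries high in Krt10, which include libraries 1 and 3 of the MuRF1 -/- females on chow, it called 45 as higher and 61 as lower. The other counts given here for MuRF1 -/- females keep those libraries, and the cause of this drop was not tested. Both comparisons called 1664 genes with the same sign and 0 with opposite signs. The shared genes make up 46.8% of the wild-type calls and 61.9% of the MuRF1 -/- calls, and 45% and 34.3% with the GC correction. Over all 14024 genes 79.2% had the same sign. The GC index moved with diet in both genotypes. Of the 71 oxidative phosphorylation genes 41 rose in MuRF1 -/- females, of the 14 tendon genes 7 fell, and of the 22 beta-oxidation genes 2 rose and 1 fell. Of the 17 slow-fibre genes 1 rose. Hspb6 was at 755 to 898 CPM on chow and 714 to 919 CPM on high fat there, a difference of 0.12 (adjusted p = 0.487).

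The difference between the genotypes was tested directly, and 2 genes (0.0143%) passed with edgeR, 662 genes having an unadjusted p under 0.05, while DESeq2 called 15. The 2 were Leo1, a subunit of the PAF1 elongation complex, and Ppp1r3c, which targets a phosphatase to glycogen. Ppp1r3c was at 341 to 596 CPM and 359.5 to 622 CPM in wild-type females on chow and high fat, and at 239 to 269 CPM and 565 to 677 CPM in MuRF1 -/- females (difference -1.35, adjusted p = 0.0482). The MuRF1 -/- libraries did not overlap between diets, and the wild-type ones did. Leo1 had a difference of -0.88 (adjusted p = 0.0482). Neither was called as a diet difference in wild-type females. Over the 8 runs without 1 library edgeR called 0 to 6 genes for this difference.

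In wild-type males the diet called few genes. It called 23 as higher (0.164%) and 26 as lower (0.185%), and 12 of the genes called in both sexes had opposite signs and 2 the same. The difference between females and males was called for 2270 genes, 1091 (7.78%) with a more positive value in females and 1179 (8.41%) with a more negative one. With the GC correction the numbers were 812 (5.84%) and 900 (6.47%). The 8 genes of smallest p for this difference were Idh1, Elmod3, Acot2, Tmem52, Alg3, Bag3, Ankrd12 and Hspb6. Idh1, the cytosolic isocitrate dehydrogenase that makes NADPH, was at 21.4 to 33.5 CPM on chow and 12.5 to 18.9 CPM on high fat in females, and at 11.5 to 14.7 CPM and 19.6 to 29.4 CPM in males. Diet separated the libraries of each sex, in opposite directions (difference -1.56 ± 0.18, adjusted p = 1.84e-05). Acot2 was at 19.4 to 22.8 CPM in males on chow and 6.10 to 10.5 CPM in males on high fat, the reverse of females (difference 2.46 ± 0.31).

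Other fuel genes were likewise higher on high fat in females and lower in males. Mean Pdk4 was 280.0 ± 178 CPM (SD, n = 4) in females on chow and 703 ± 249 CPM on high fat, and 1230 ± 380.0 CPM and 311 ± 42.7 CPM in males. Mean Angptl4 was 3.43 ± 0.727 and 8.77 ± 4.61 CPM in females, and 11.5 ± 3.50 and 2.07 ± 0.872 CPM in males. Fabp3 was at -0.97 in males, which did not pass (adjusted p = 0.261), and its difference between the sexes was 2.42 ± 0.49 (adjusted p = 0.00335). Cfd was at 11.4 ± 3.46 CPM in males on chow and 49.5 ± 5.36 CPM in males on high fat (adjusted p = 0.0517), and its difference between the sexes was -3.48 ± 0.66. Of the 24 PPAR targets 0 rose and 3 fell in males, and 11 had a more positive diet difference in females. Of the 22 beta-oxidation genes 13 differed between the sexes in that direction and 0 in the other, and of the 71 oxidative phosphorylation genes 22 and 1. Of the macrophage and tendon genes 9 and 7 were more negative in females and 0 and 0 more positive. These list counts carry no GC correction. Of all genes 7.78% were called as more positive and 8.41% as more negative in females. The diet called 0.164% of all genes as higher and 0.185% as lower in males.

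**Figure D5:**
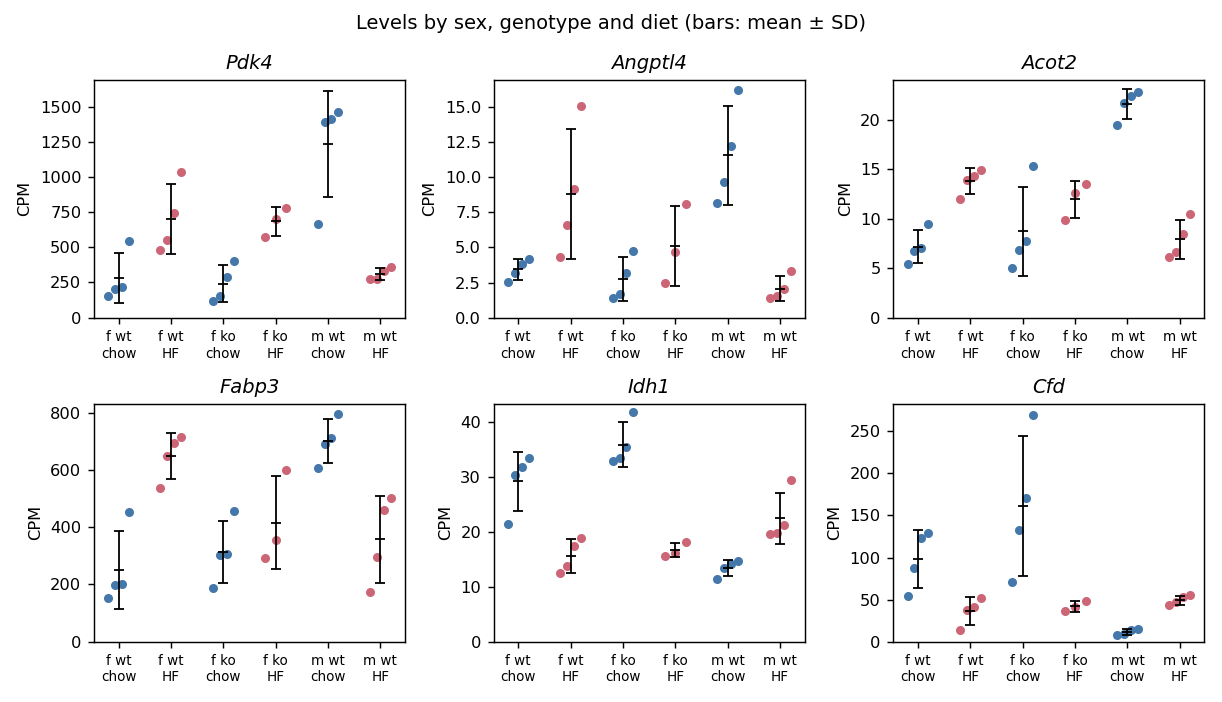
CPM of 6 genes in females (f) and males (m), wild type (wt) or MuRF1 -/- (ko), on chow (blue) or high fat (HF, red), 1 point per library with the mean and SD. In wild types the means of Pdk4, Angptl4, Acot2 and Fabp3 are higher on high fat in females and lower on high fat in males, and those of Idh1 and Cfd do the reverse.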

How the data were processed

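Raw counts per gene, made and deposited by the authors, were used for all 31 libraries of polyadenylated RNA from gastrocnemius. Per the labels' protocols the libraries were stranded and read as 150-base pairs on a HiSeq instrument, from RNA with a RIN over 8. Per the submitters' processing notes bcl2fastq and featureCounts were used with the build mm10. The aligner, the strand setting and all versions were not given in the sources used here. The tables hold 39017 Ensembl gene IDs, of which 37693 were found in the GENCODE M21 annotation, the source of symbols and positions. An exonic GC content and length, taken from the longest transcript of the gene, was available for 37607.

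Libraries were grouped by animal number, and 1 library, whose animal is in no title, was left out. The fit used edgeR 4.0.16 in R 4.3.3 (TMM, filterByExpr with a minimum count of 10, robust quasi-likelihood test, Benjamini-Hochberg adjusted p under 0.05) on 30 libraries in 8 groups, with a common dispersion of 0.0202 and 22 residual degrees of freedom. Each SE was obtained by dividing the absolute log2 fold change by the square root of F. CPM are counts scaled to a common library total, without TMM factors. The GC and length corrections are lowess fits of log counts in each library (span 0.4), used as offsets. The script was tested on simulated data. DESeq2 1.42.0 and the other alternatives of the closing section were also run, among them leaving out libraries with Trim63 of 50 to 150 CPM. No 2 libraries of a group held the same counts (lowest chi-square per gene 8.85 over 12 pairs). Each of the 8 libraries carries its own animal number. The p-values rest on a spread shared over all 30 libraries of the fit, not on these 8 alone.

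The comparison, gene lists and tests were chosen with earlier results of these data known. Genes were named by a rule: label checks, the 12 largest increases and decreases among called genes whose log2 CPM averaged 0 or more, the 6 smallest p in each direction, up to 4 members of each list by p or all called members where there are up to 8, and the 8 smallest p of each difference between groups. Clone names and IDs without a symbol were passed over. Some genes that the rule names are not reported here. Genes outside that rule (Acaca, Acacb, Acly, Cs, Cd36, Lpl, Acadvl, Acadm, Ppargc1a, Myh7, Pecam1, Cdh5, Col1a1, Col3a1, Adipoq, Lep, mt-Co1, Cpt1b, Ucp2, Slc2a4, Pdp1, Hspb2, Cryab, Hspa4l, Chordc1, Dnaja1, and Pdk4, Angptl4, Fabp3 and Cfd between the sexes) were chosen after their values were seen. Lists share genes, such as Fabp3, Plin5, Cpt1b, Slc25a20, Dcn and Lyve1.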

Additional observations from a re-analysis of the deposited data

Results flagged for a closer look

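In each group of 4 libraries, the gap between the highest or lowest value and its nearest neighbour was divided by the range of the group, and values over Dixon's 95% limit were kept. Among 410 such groups (CPM of the named genes, summed lists and library measures) 45 passed it, and chance gives about 1 in 20. The groups share libraries, so these are not independent. The ratio of gap to range stands in brackets.

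Chow 1 was the high value for Fabp3 (0.835), Pdk4 (0.832), Plin5 (0.862), Slc25a20 (0.93), Lpl (0.855), Acadm (0.875), Hspb6 (0.832), Cryab (0.857), the summed PPAR targets (0.881) and the summed chaperones (0.848). Chow 3 was the high value for Krt10 (0.969), Myl4 (0.919), Col14a1 (0.893), Timp2 (0.85), Col3a1 (0.853), Mrc1 (0.906), C3 (0.831), Mbp (0.864), Gabra3 (0.854), the summed matrix genes (0.902) and the summed keratinocyte markers (0.985), and the low one for Tmem52 (0.847). Chow 4 was the high value for Hbb-bs (0.854), Alas2 (0.878), Ankrd12 (0.937) and the summed erythroid genes (0.85), and it had the lowest total count of the chow libraries (0.863). Chow 2 was the high value for Lyve1 (0.838) and the low one for Ncoa4 (0.931).

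High fat 3, the library with the highest GC index, was the high value for Ndufs7 (0.853), Atp5d (0.832), Pdk2 (0.88), Myh7b (0.845), Txn2 (0.894), Prdx5 (0.853), Phlda3 (0.875) and the summed chaperones (0.893), and the low one for Clock (0.869) and Pik3ca (0.875). High fat 4 was the low value for Acacb (0.836), Pecam1 (0.842), Col11a1 (0.852), Dpt (0.92) and the summed macrophage markers (0.901), and high fat 2 the high one for Mup10 (0.847).

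The diet difference of wild-type females minus that of wild-type males passed edgeR's test for 2270 genes. On the log2 scale this difference was -1.56 for Idh1, 1.34 for Elmod3, 2.46 for Acot2, 1.36 for Tmem52, 1.29 for Alg3, 1.11 for Bag3, -1.46 for Ankrd12 and 1.13 for Hspb6. It was 3.38 for Pdk4, 3.93 for Angptl4, 2.42 for Fabp3 and -3.48 for Cfd. The difference of wild-type minus MuRF1 -/- females passed for 2 genes, Leo1 (-0.88) and Ppp1r3c (-1.35).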

How the results depend on the processing

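The 3558 genes of the diet comparison in wild-type females became 2229 with the 2 groups fitted alone, 1499 with the GC correction, 1288 with GC and length corrected, 1928 without libraries whose title and animal differ, 2069 without the 3 libraries high in Krt10 and 2339 without chow 3 and high fat 4. They numbered 3704 with DESeq2 and 2757 with no filter on low counts. Leaving out each of the 8 libraries in turn gave 1829 (without high fat 3) to 3717 genes. The 2 genes of the genotype difference became 0 with no filter, 10 with its groups alone, 1 with the GC correction, 1 with GC and length corrected, 0 without disagreeing titles, 1 without libraries at intermediate Trim63, 0 without those high in Krt10, 0 without chow 3 and high fat 4 and 15 with DESeq2, and 0 to 6 without 1 library. The 2270 genes of the sex difference became 1251, 1281 and 1485 under the same 3 exclusions in that order (titles, Krt10, chow 3 with high fat 4), and 1533 to 2548 without 1 library. The causes of these shifts were not tested, beyond the smaller number of samples where libraries were left out. The corrections for GC and length together and the exclusion of chow 3 with high fat 4 were chosen after seeing the data.

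The replicate numbers of the 2 groups are names and pair no animals, and same-numbered libraries correlated at 0.08, -0.052, 0.231 and 0.167 in their deviations. With the number as a replicate block, 3844, 5 and 2499 genes were called for diet, genotype difference and sex difference, and 1633, 0 and 1741 with the block and the GC correction.

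Of 156 named genes called for diet, 100 remained called in the same direction with the GC correction, 87 with GC and length corrected, 111 without chow 3 and high fat 4, 155 with DESeq2, 110 in each run without 1 library and 64 in every alternative run. Without chow 1 to 4 in turn 17, 13, 35 and 27 of these calls were lost, and without high fat 1 to 4 9, 14, 37 and 20. With GC and length corrected 4 named genes changed sign without passing the test, Xist (0.014), Chordc1 (0.071), Dnaja1 (0.049) and Pik3ca (0.097). With 3 counts worth up to 0.301 CPM, the values of Cidea, Wif1, Mup10 and Chrna2 rest on few counts in the lower group.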
